A study of Mus musculus with 6 samples.

Results

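The regions described are the open chromatin at 10 genes of the mature neutrophil in mouse blood: the alarmin genes S100a8 and S100a9, the receptor genes Cxcr2, Csf3r, Fpr1, Fpr2, Trem1 and Trem3, the surface marker gene Ly6g and the secreted-protein gene Retnlg. They were chosen by name, and the peaks of 6 ATAC-seq lists were assigned to them when the summit lay in the gene body or within 3000 bp of an annotated transcript start. Of 77949 annotated genes, these 10 held 87 of 250978 peaks, and overlapping peaks of different libraries merged into 21 of 62876 regions. Each of the 10 genes had a peak in at least 1 library. ATAC-seq cuts accessible DNA with the Tn5 transposase, so the height of a peak, its summit pileup, counts the fragments that cover its highest base.

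The samples were white blood cells of peripheral blood after lysis of red cells, with 3 libraries labelled control and 3 labelled HADA, for high altitude de-acclimatization. Per the study's methods the animals were male C57BL/6j mice bought as young adults, the HADA mice had spent several weeks in a chamber simulating high altitude before their return to normal oxygen, and the controls stayed in normal oxygen. The day of return on which blood was taken for these libraries is not given in the sources used here. The comparison asks if open chromatin in blood cells changed after de-acclimatization. The cells were unsorted leukocytes per the labels, while the study's results text calls them mononuclear cells, a fraction that holds few neutrophils. Nothing in the labels says whether replicates came from separate mice, so the p-values measure the spread between these libraries.

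Peak numbers were 34045 to 41475 in the control and 44044 to 45799 in the HADA libraries. The genome-wide background pileup, which stands here for relative depth, ranged from 1.69 to 2.05 among controls and from 1.99 to 2.34 among HADA libraries. Over the 23970 regions with a peak in all 6 libraries, log2 pileups correlated at 0.969 to 0.981 between HADA libraries and at 0.902 to 0.923 between control libraries. Control 1 correlated at 0.911 with HADA 1, which is within the range of the control pairs. The tested differences were computed on log2 pileups centred on the median shared region of each library. When pileups were divided by the library background instead, the median shared region was 0.34 higher in HADA on the log2 scale, so a centred difference is relative to that shift.

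Mature neutrophils are short-lived phagocytes that leave the bone marrow under the control of granulocyte colony-stimulating factor and chemokines and are the first cells to reach infected tissue. S100A8 and S100A9 form calprotectin, an abundant cytosolic complex that binds metals and acts as an alarm signal once released. CXCR2 and the formyl peptide receptors steer the cells towards chemokines, bacterial peptides and damaged tissue, and TREM1 amplifies the response to microbial products. Accessible chromatin at such genes is a property of the cell type as well as of its state, so in mixed blood it depends on the share of neutrophils.

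The sequences below are summits with 100 bases on either side. They are from the 4 genes with the largest fall among the 8 regions with a peak in all 6 libraries, at the tallest such region of each gene, because these are the DNA elements at which the differences were measured. They are GRCm39, on the strand of the gene, and capitals mark each match to GGAAGT or its reverse complement ACTTCC, the core bound by ETS factors such as PU.1. This core was chosen after the sequences had been seen.
S100a8, 76 bp upstream of an annotated start, chr3:90576391-90576591, plus strand: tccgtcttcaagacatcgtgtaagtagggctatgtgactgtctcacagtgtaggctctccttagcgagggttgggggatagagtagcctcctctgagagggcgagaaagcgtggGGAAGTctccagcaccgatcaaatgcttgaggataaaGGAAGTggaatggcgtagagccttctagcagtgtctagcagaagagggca
Fpr1, 864 bp downstream of its start, chr17:18103238-18103438, minus strand: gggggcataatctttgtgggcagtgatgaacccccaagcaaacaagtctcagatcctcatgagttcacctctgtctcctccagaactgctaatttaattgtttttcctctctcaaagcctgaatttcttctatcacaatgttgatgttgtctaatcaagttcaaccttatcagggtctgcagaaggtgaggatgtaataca
S100a9, 1958 bp downstream of its start, chr3:90600917-90601117, minus strand: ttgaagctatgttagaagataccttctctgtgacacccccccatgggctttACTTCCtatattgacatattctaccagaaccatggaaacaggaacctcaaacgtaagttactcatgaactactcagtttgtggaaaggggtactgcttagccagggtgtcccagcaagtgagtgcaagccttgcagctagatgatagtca
Cxcr2, 1528 bp downstream of its start, chr1:74194578-74194778, plus strand: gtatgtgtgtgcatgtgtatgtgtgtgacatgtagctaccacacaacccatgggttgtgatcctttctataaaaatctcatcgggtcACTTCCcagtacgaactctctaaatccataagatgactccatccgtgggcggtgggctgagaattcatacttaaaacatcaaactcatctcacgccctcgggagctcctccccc
S100a8 held 2 of these cores, S100a9 and Cxcr2 held 1 each and Fpr1 held none. The 50 bases at the summit of each of the 21 regions occurred once in the genome, so reads there could be placed.

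Measured by summit pileup, chromatin at the neutrophil genes was less accessible in HADA than in control blood at all 8 regions with a peak in every library. These 8 of the 21 regions belong to 7 genes: S100a8, S100a9, Cxcr2 with 2 regions, Csf3r, Fpr1, Trem1 and Trem3. All 8 passed an adjusted p of 0.05 in the lower direction (limma, Benjamini-Hochberg adjustment over all 23970 shared regions), against 24.1% of all regions tested. None was higher, also at an unadjusted p under 0.05, against 17.9% of all regions. The calls depended on the measure. Ranked by the deposited fold of the summit over its surroundings, 0 of the 8 were lower, against 4.79% of all regions, and 1 was higher, against 6.57%. The log2 differences ran from -2.31 at S100a8 to -1.44 at Csf3r with a median of -1.99, and the median over all regions was -0.04. A smaller share of neutrophils among the white cells and less open chromatin per neutrophil cannot be told apart in these samples. The other 13 regions lacked a peak in at least 1 library and could not be fitted in the same way.

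**Figure D1:**
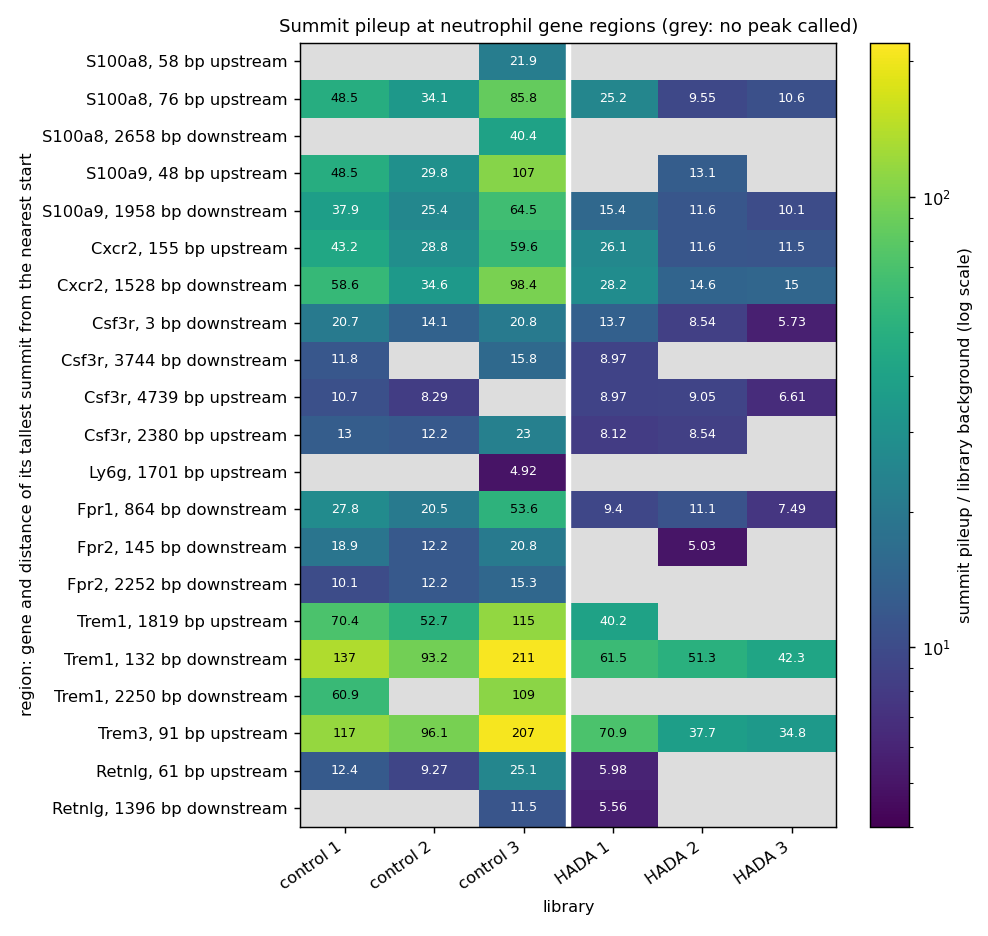
Summit pileup divided by the library's background (colour, log scale, and printed number) at the 21 regions of the 10 neutrophil genes (rows, with the distance of the tallest summit from the nearest annotated start) in the 3 control and 3 HADA libraries (columns). Grey marks a library without a called peak, and the control columns hold the higher values in each of the 8 rows that are filled in all 6 libraries.

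**Figure D2:**
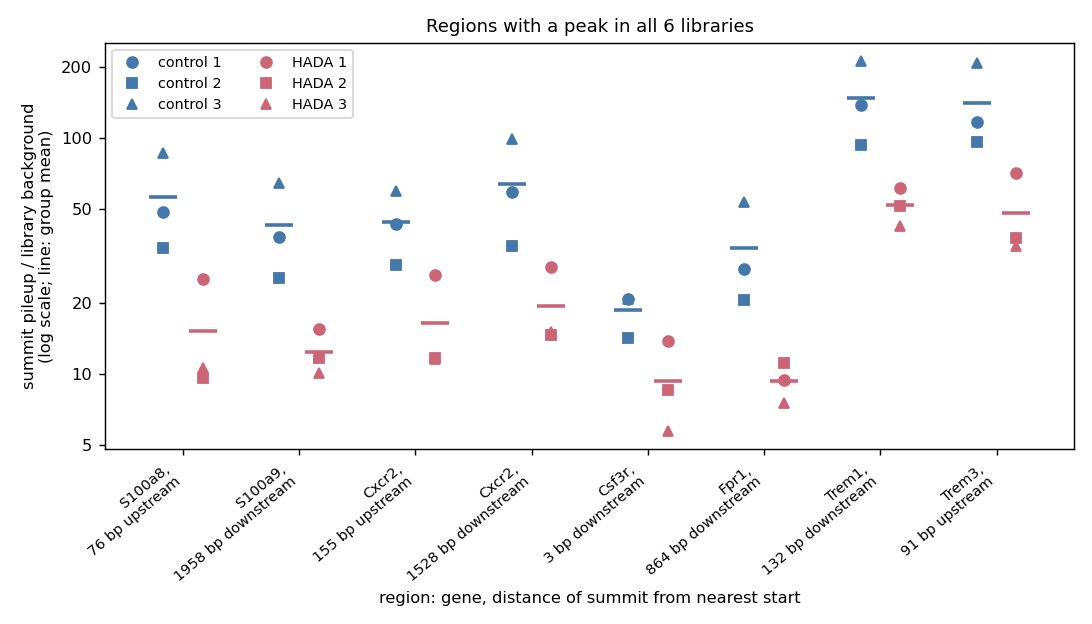
Summit pileup divided by the library's background (vertical axis, log scale) at the 8 regions with a peak in all 6 libraries, with a point for each library and a line for the mean of each group of 3. All HADA points lie below all control points in each region, control 3 is the highest control point in 8 of 8, and the narrowest gaps are at the Cxcr2 start and at Csf3r.

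Across the genome the direction of calls depended on the scaling. With median centring 4291 regions were higher and 5769 lower in HADA, so that 42.7% of the calls were higher. Division by the library background gave 7636 higher and 4454 lower, or 63.2% higher, and quantile normalization, which was added after the data were seen, gave 5399 higher and 4090 lower, or 56.9% higher. The 8 neutrophil regions were called lower under each of these scalings, against 18.6% of all regions after division by the background and 17.1% after quantile normalization. Their median was -1.61 on the log2 scale when pileups were divided by the background.

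S100a8 had 3 regions, and the one in all libraries showed the largest fall of the 8. It lies on chr3:90575954-90577090, in an intron of the longer transcripts and 76 bp upstream of the nearest of 6 annotated starts. The summit pileups there were 82, 70 and 157 in control 1 to 3 and 59, 19 and 24 in HADA 1 to 3. Every HADA library was below every control library, and HADA 1 stood nearest to the controls. Over the library background the summit was 56.2 ± 26.7 in control and 15.1 ± 8.76 in HADA (SD, n = 3 each), which is 3.72-fold higher in control. The log2 difference was -2.31 ± 0.45 (SE; limma adjusted p = 0.0109). The other regions of S100a8, 58 bp upstream of a distal start and 2658 bp downstream of another, had a peak in control 3 alone, with pileups of 40 and 74. At the downstream region the local background was high enough in control 1 that a summit under 30 would not have been called, and under 20 in HADA 1.

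S100a9, the partner subunit, had a region at its start and another in an intron. At the start region (chr3:90602329-90603312, 48 bp upstream) the pileups were 82, 61 and 195 in the control libraries, and the HADA libraries had a peak only in HADA 2, with a pileup of 26. In HADA 1 and HADA 3, summits under 22 and 14 would not have been called over the local background there, and both limits are below the lowest control pileup of 61. The intronic region (chr3:90600701-90601370, 1958 bp downstream) had a peak in every library, with pileups of 64, 52 and 118 in control and 36, 23 and 23 in HADA. Over the background it was 42.6 ± 20 in control and 12.4 ± 2.72 in HADA (SD, n = 3 each), 3.44-fold higher in control, with a log2 difference of -2.08 ± 0.35 (SE; limma adjusted p = 0.00927). The groups did not overlap, and control 3 stood above the other controls.

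Cxcr2, the receptor for the neutrophil-attracting CXC chemokines, had 2 regions and both were lower in HADA. The start region (chr1:74192800-74193424, 155 bp upstream) had pileups of 73, 59 and 109 in control and 61, 23 and 26 in HADA. The pileups themselves overlapped, since HADA 1 exceeded control 2, but over the background the groups were apart, with 28.8 in control 2 and 26.1 in HADA 1 as the nearest values. The means were 43.8 ± 15.4 and 16.4 ± 8.41 (SD, n = 3 each), a ratio of 2.68, and the log2 difference was -1.85 ± 0.38 (SE; limma adjusted p = 0.0117). Without HADA 2 this difference was -1.63 with an adjusted p of 0.0502 (limma). The intronic region 1528 bp downstream (chr1:74194233-74195360) was the taller of the pair, with pileups of 99, 71 and 180 in control and 66, 29 and 34 in HADA. It was 3.32-fold higher in control over the background, 63.9 ± 32.2 against 19.3 ± 7.76 (SD, n = 3 each), with a log2 difference of -2.05 ± 0.41 (SE; limma adjusted p = 0.0112).

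Csf3r encodes the receptor for granulocyte colony-stimulating factor, and 1 of its 4 regions had a peak in all 6 libraries. The region at the start (chr4:125917972-125918865, summit 3 bp into the first exon) had pileups of 35, 29 and 38 in control and 32, 17 and 13 in HADA. It showed the smallest difference of the 8 tested regions, with 18.5 ± 3.81 against 9.31 ± 4.03 over the background (SD, n = 3 each), 1.99-fold higher in control, and a log2 difference of -1.44 ± 0.30 (SE; limma adjusted p = 0.012). HADA 1, at 13.7 over the background, was just below control 2 at 14.1. The HADA 3 value rested on 13 fragments, with an exact 95% Poisson interval of 6.92 to 22.2 that covers counting error only. Without HADA 2 the difference was -1.39 with an adjusted p of 0.0511 (limma). The predicted genes Gm32908 and Gm68974 overlap this region.

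The remaining Csf3r regions lie inside the gene. The intronic region 3744 bp downstream of a start (chr4:125924367-125924974) had peaks of 20 and 29 in control 1 and control 3 and of 21 in HADA 1. The intronic region 4739 bp upstream of a later start (chr4:125926579-125927249) was the only one of the 21 with a peak in more HADA than control libraries. Its pileups were 18 and 17 in control 1 and control 2 and 21, 18 and 15 in the HADA libraries, and a summit under 22 would not have been called in control 3. The pileups overlapped between groups there. The intronic region 2380 bp upstream of a start (chr4:125929101-125929785) had pileups of 22, 25 and 42 in control, 19 in HADA 1 and 17 in HADA 2, and no peak in HADA 3.

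Fpr1 and Fpr2 encode formyl peptide receptors for bacterial and mitochondrial peptides, and only Fpr1 could be tested. Fpr1 had a single region, in its intron (chr17:18102737-18103578, 864 bp downstream), with pileups of 47, 42 and 98 in control and 22, 22 and 17 in HADA. The lowest control library, at 42, was well above the highest HADA libraries, at 22. Over the background it was 34 ± 17.4 in control and 9.32 ± 1.78 in HADA (SD, n = 3 each), 3.64-fold higher in control, with a log2 difference of -2.14 ± 0.36 (SE; limma adjusted p = 0.00927).

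Fpr2 had 2 regions, neither with a peak in all libraries, and both also lie within the annotated body of Fpr3. The start region (chr17:18108111-18108549, 145 bp downstream) had pileups of 32, 25 and 38 in control and, among the HADA libraries, a peak of 10 in HADA 2 alone. The second region (chr17:18109932-18110467, 2252 bp downstream) had pileups of 17, 25 and 28 in control and no peak in HADA. It was the only one of the 21 with a peak in 3 of 3 control and 0 of 3 HADA libraries, against 1.88% of all 62876 regions. Summits under 9 would not have been called in any HADA library there, against the lowest control pileup of 17. For HADA 1 and HADA 3 this limit assumes the genome-wide background, and a higher local background would raise it.

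Trem1 and Trem3, which encode activating receptors of myeloid cells and lie next to each other on chromosome 17, had the tallest peaks of the set. The Trem1 start region (chr17:48538950-48540339, 132 bp downstream) had pileups of 231, 191 and 387 in control and 144, 102 and 96 in HADA. Over the background it was 147 ± 59.8 in control and 51.7 ± 9.63 in HADA (SD, n = 3 each), 2.85-fold higher in control, with a log2 difference of -1.82 ± 0.31 (SE; limma adjusted p = 0.00932). The groups were clearly apart, as the lowest control library exceeded the highest HADA library by 191 to 144 fragments. A region 1819 bp upstream of the start (chr17:48537678-48538204) had pileups of 119, 108 and 211 in control and 94 in HADA 1, with no peak in HADA 2 and HADA 3, where summits under 35 would have been missed. The innermost region, 2250 bp downstream (chr17:48541431-48542224), had pileups of 103 and 199 in control 1 and control 3 alone. There the local background was so high that summits under 74 in control 2 and under 58 in HADA 1 would not have been called, so the missing peaks bound the height only loosely.

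The Trem3 region at the start (chr17:48554117-48555251, 91 bp upstream) had pileups of 198, 197 and 379 in control and 166, 75 and 79 in HADA. It was 140 ± 59 over the background in control and 47.8 ± 20.1 in HADA (SD, n = 3 each), 2.93-fold higher in control, and the log2 difference was -1.93 ± 0.37 (SE; limma adjusted p = 0.0109). HADA 1 was the highest HADA library by a wide margin and was still below every control. The Trem3 region and the 2 inner Trem1 regions also overlap ENSMUSG00000135259, an annotated gene without a name in the files used here.

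Ly6g, the surface antigen used to stain mouse neutrophils, had the weakest chromatin of the set. Its single region (chr15:75025206-75025555, 1701 bp upstream) was called in control 3 alone, with 9 fragments and an exact 95% Poisson interval of 4.12 to 17.1. Summits of under 7 to 9 would not have been called in the other libraries, so no difference between groups was detectable at this depth. Retnlg, which encodes a resistin-like protein secreted by neutrophils and their marrow precursors, had a start region (chr16:48692062-48693174, 61 bp upstream) with pileups of 21, 19 and 46 in control and 14 in HADA 1. In HADA 2 and HADA 3, summits of 8 and 9 would have sufficed for a call over the genome-wide background, and both are below the lowest control pileup of 19. An intronic region of Retnlg (chr16:48694328-48694657, 1396 bp downstream) had a peak in 1 library of each group, of 21 in control 3 and 13 in HADA 1.

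Counted by presence, 11 of the 21 regions had a peak in more control than HADA libraries, against 22.7% of all regions, 1 had the reverse, against 35.5%, and 0 had a peak in 3 of 3 HADA and 0 of 3 control libraries, against 7.01%. Peaks at the 10 genes numbered 17, 15 and 20 in the control and 14, 12 and 9 in the HADA libraries, although the HADA lists were longer. Per 10000 peaks this was 4.54 ± 1.18 in control and 2.61 ± 0.597 in HADA (SD, n = 3 each; two-sided exact permutation p = 0.1, the smallest that 3 libraries against 3 can give). A peak was called at 9, 9 and 10 of the 10 genes in the control and at 8, 8 and 7 in the HADA libraries. A fit of regions with a peak in at least 3 libraries, with missing values set at the lowest pileup called in that library, called 22.1% of its regions lower. The members it adds entered mainly through their control peaks and had missing values put in, so it is no test of them.

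**Figure D3:**
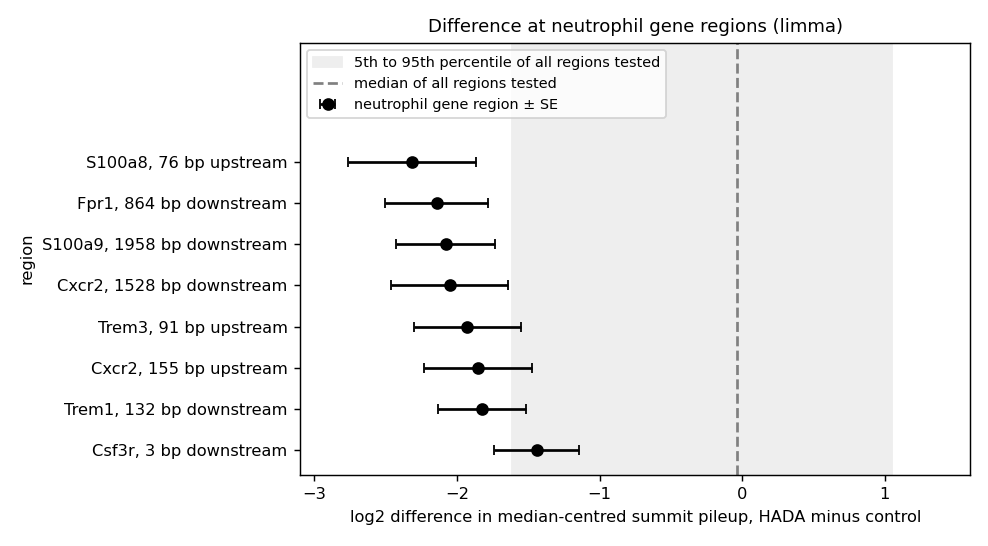
Log2 difference in median-centred summit pileup, HADA minus control (horizontal axis, ± SE from limma), at the 8 neutrophil gene regions with a peak in all 6 libraries (rows, ordered by size). The grey band spans the 5th to 95th percentile of all 23970 regions, -1.61 to 1.05, and 7 of the 8 points lie to the left of it, with Csf3r inside it at -1.44.

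The members moved together across libraries as well as between groups. The median centred log2 pileup of the 8 regions was 0.42, 0.22 and 1.47 in control 1 to 3 and -0.62, -1.74 and -1.70 in HADA 1 to 3, so the group means were 0.705 ± 0.673 and -1.35 ± 0.637 (SD, n = 3 each; two-sided exact permutation p = 0.1). Over the library background, control 3 was the highest of the controls in 8 of 8 regions and control 2 the lowest in 8 of 8. On the centred scale control 1 was the lowest at Trem3, at 1.77 against 1.84 in control 2. How often all regions took such an order was not counted. Over the library background HADA 1 was the highest of the HADA libraries in 7 of 8, and HADA 3 the lowest in 6 and HADA 2 in 2. The order of HADA 2 and HADA 3 depended on the scale. On the centred scale HADA 2 was the lowest at S100a8, at both Cxcr2 regions and at Trem3. Without control 3, all 9 regions that could then be fitted were lower (limma), against 21.6% of the regions in that fit, with a median of -1.60. The region added there is that of Csf3r 4739 bp upstream of a later start. Over the library background its groups overlapped, at 10.7 and 8.29 in control 1 and control 2 and 8.97, 9.05 and 6.61 in HADA. Over the library background, all HADA libraries were below all controls in 8 of 8 regions, against 17.4% of all regions.

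The neighbourhood of each summit fell with the summit. The local background that the peak caller used as its reference, divided by the genome-wide background, was below every control in every HADA library at 8 of 8 regions, against 12.8% of all regions. It includes the reads of the summit itself and is not an independent measure. At Trem1 it was 39.9 ± 18.6 in control and 11.3 ± 3.93 in HADA, and at S100a8 it was 11.5 ± 6.84 and 2.47 ± 1.07 (SD, n = 3 each). The control to HADA ratio of the local background ran from 2.32 at Csf3r to 5.49 at the S100a9 intron. The deposited fold enrichment sets the summit against these surroundings, and at S100a8 it was 5.01, 5.26 and 4.37 in control and 6.21, 4.29 and 4.77 in HADA. At Trem3 it was 6.45, 7.76 and 7.14 in control and 9.02, 7.39 and 8.38 in HADA, so the groups overlapped at both genes. Ranked by this fold within each library, 0 of the 8 regions were lower in HADA (limma on normal scores of the ranks), against 4.79% of all regions, and 0 were lower at an unadjusted p under 0.05. The S100a9 intron alone was higher (0.88, adjusted p = 0.045), against 6.57% of all regions, while 2 regions were higher at an unadjusted p under 0.05. The S100a9 intron had folds of 2.91, 2.74 and 2.1 in control and 3.36, 3.59 and 3.81 in HADA.

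**Figure D4:**
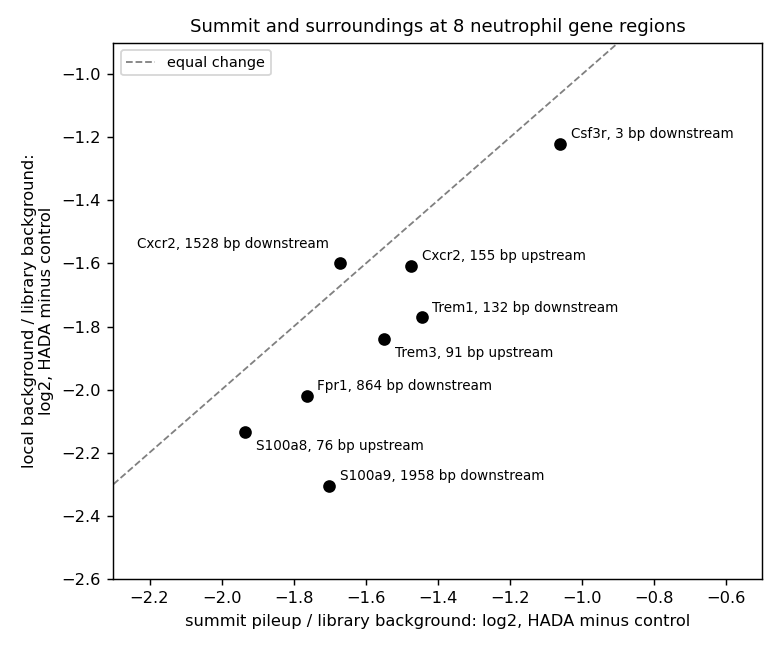
Difference of the group means of log2 values, HADA minus control, of the summit pileup over library background (horizontal axis) and of the local background over library background (vertical axis) at the 8 regions (points). The dashed line marks equal change, 7 points lie below it and the intronic Cxcr2 region lies just above it, so the surroundings fell about as far as the summits or further.

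Paralogs of the members, many of them at other loci, and neighbours of the members were mixed in direction. Of the 13 regions with a peak in all 6 libraries, at 10 of 32 such genes, 4 were lower, 2 higher and 7 were not called, with a median of -0.21. After division by the library background 2 were lower and 4 higher. The balance of this list thus turned with the scaling, as did that over all 23970 regions, with 4454 lower and 7636 higher by that division. Among S100 genes, S100a11 (-1.16 ± 0.31, limma adjusted p = 0.0221) was lower and S100a10 (0.86 ± 0.19, adjusted p = 0.0145) was higher. Neither lies beside S100a8 and S100a9. S100a6, which is nearer to S100a8 and S100a9, was at -0.20 (limma adjusted p = 0.443). Of the other paralogs, Retn (-1.16 ± 0.35, limma adjusted p = 0.032) and Fpr3 (-0.59 ± 0.20, 0.0489) were lower and Ly6e was higher (0.57 ± 0.19, 0.0404). The pileups of Fpr3 overlapped between groups, at 41, 29 and 23 in control and 32, 27 and 34 in HADA, and after division by the background its difference was -0.21 (limma adjusted p = 0.557). The pileups of Retn also overlapped, at 44, 32 and 53 in control and 53, 22 and 21 in HADA, and it was not called with quantile normalization (-0.92, limma adjusted p = 0.0845). Retnlb, beside Retnlg, had peaks of 12, 17 and 30 in control and none in HADA, while Cxcr1, the neighbour of Cxcr2, had a peak of 11 in HADA 1 alone.

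Ligands, adaptors and signalling partners of these receptors were lower at 13 of 42 fitted regions, higher at 2 and not called at 27 (limma), with a median log2 difference of -0.31. Of all regions, 24.1% were lower and 17.9% higher. After division by the background 8 were lower and 4 higher, with a median of 0.07, and 18.6% of all regions were lower. The lower counts of this list were thus near the shares over all regions. The lower regions included those of Card9, an adaptor below C-type lectin receptors (-1.47 ± 0.24, limma adjusted p = 0.00906), and Cebpa, a transcription factor of the granulocyte lineage (-1.03 ± 0.19, 0.0105). Cebpa was not called after division by the background (-0.65, limma adjusted p = 0.0564). A region of Plcg2, a phospholipase that B cells also use, was higher (0.82 ± 0.20, limma adjusted p = 0.0177). Of the genes for CXCR2 ligands, Cxcl2 had a start region with pileups of 125, 116 and 270 in control and 108, 43 and 53 in HADA, which was lower (-1.96, limma adjusted p = 0.0132). Cxcl1, Cxcl3, Cxcl5 and Ppbp had no region, nor had Ager, which encodes a receptor for S100 proteins.

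Other neutrophil genes were mostly lower too, with 29 of 41 fitted regions lower, 3 higher and 9 not called (limma), and a median of -1.34. After division by the background 24 were lower and 4 higher. Clec4e, a lectin receptor for microbial glycolipids, fell by 2.39 ± 0.28 on the log2 scale (limma adjusted p = 0.00759). Ifitm6 (-1.91 ± 0.26, adjusted p = 0.00827) and Itgam, the integrin chain CD11b (-1.70 ± 0.25, 0.00881), were also lower. The higher regions included Wfdc21 (1.52 ± 0.26, limma adjusted p = 0.00942) and Gfi1, a transcriptional repressor (1.08 ± 0.22, 0.012). Of the granule protein genes, Camp, Ngp and Ctsg had no region, while Mpo, Elane, Prtn3, Ltf and Lcn2 had at least 1.

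Markers of B cells moved in the opposite direction to the neutrophil genes, and their part in the result was not tested. Of the 10 B cell genes, 5 had regions in all 6 libraries, and 7 of 7 such regions were higher in HADA (limma) with a median of 1.97, or 6 of 7 with quantile normalization, among them Cd79b (1.498 ± 0.26, adjusted p = 0.00954) and Pax5 (1.85 ± 0.37, 0.0112). Sums here and below cover only the regions with a peak in all 6 libraries, not the whole lists. For the 7 B cell regions the summed pileup over background ranged from 52.5 to 258 among controls and from 554 to 631 among HADA libraries. That of the 8 neutrophil regions ranged from 347 to 801 among controls and from 137 to 250 among HADA libraries. Control 3, with the highest neutrophil values, had the lowest B cell sum. No B cell gene lacked a region. T cell regions were higher at 4 of 15, lower at 0 and not called at 11, with a median of 0.25 and Lat (0.93 ± 0.18, limma adjusted p = 0.0111), Cd5 (0.63 ± 0.16, 0.0182) and Tcf7 (0.78 ± 0.20, 0.0193) in front. After division by the background 6 were higher, with a median of 0.63, while 7636 of all 23970 regions were higher by that division. The summed pileup of the 15 T cell regions ranged from 345 to 462 among controls and from 544 to 593 among HADA libraries.

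Monocyte regions were lower at 8 of 15, higher at 1 and not called at 6 (limma), with a median of -0.67. After division by the background 3 were lower and 1 higher. Over all 23970 regions, 4454 were lower and 7636 higher by that division. The lower ones included Cx3cr1 (-1.11 ± 0.18, adjusted p = 0.00914) and Treml4 (-1.72 ± 0.30, 0.00951), and Ly86 was higher (1.14 ± 0.32, 0.0249). Cx3cr1 was not called with quantile normalization (-0.68, limma adjusted p = 0.0555). The summed pileup of the 15 monocyte regions overlapped between groups, at 438 to 621 in control and 456 to 512 in HADA. None of the 3 NK cell regions was called by limma, also at an unadjusted p under 0.05, but 2 were higher after division by the background, and the sums were 30.1 to 63.9 in control and 63.7 to 74.4 in HADA. Eosinophil and basophil genes had 2 lower regions and 1 higher, or 0 lower and 1 higher after division by the background, with sums of 42.9 to 54.4 and 43.2 to 60.8, and their defining genes Epx, Ccr3, Mcpt8 and Fcer1a had no region. Erythroid and platelet genes had 2 higher regions of 3, or 3 after division by the background, with sums of 78 to 98.8 and 154 to 195, and Hba-a1, Alas2 and Gp9 had no region. Housekeeping genes had 1 lower, 1 higher and 12 uncalled regions, or 0 lower and 2 higher after division by the background, and their medians overlapped between groups.

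**Figure D5:**
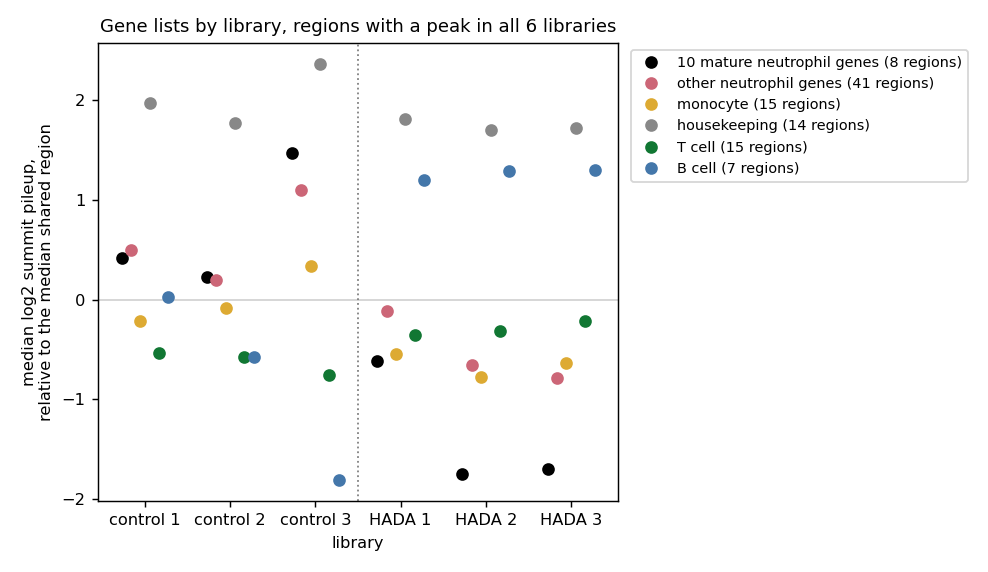
Median log2 summit pileup of each gene list's regions with a peak in all 6 libraries, relative to the median shared region (vertical axis, 0 is the median region). The horizontal axis holds the 6 libraries. The 10 neutrophil genes (black) and the other neutrophil genes are higher in the control than in the HADA libraries, the B cell genes run the other way, and control 3 has both the highest neutrophil and the lowest B cell median.

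Other genes were compared with the pattern over libraries of the 7 genes that had a fitted region, which leaves out Ly6g, Fpr2 and Retnlg. Their mean profile was compared with the tallest promoter region of 11563 other protein-coding genes by Pearson correlation over the 6 libraries, and 1407 genes had a correlation over 0.9. The most alike were Ulk1 (0.9989), Ncf4 (0.9987), Hcst and Nfkbid (both 0.9984, from a shared region) and Fbxl14 (0.9984). Ncf4, a subunit of the phagocyte oxidase, had a log2 difference of -2.06, and Fbxl14 of -0.65. The least alike were Gatb (-0.9991) and Gemin4 and Dbil5 (both -0.9983, from a shared region). With 6 libraries in 2 groups, any region that differs between groups correlates with the profile, so these values describe likeness only.

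Sequence motifs were looked for up to 100 bp from each summit, on either strand. The ETS core GGAAGT, chosen after the sequences had been seen, occurred at 8 of the 21 regions (38.1%) and at 21.2% of all 62876 regions. It was at 19.9% of regions lower in HADA and 21.5% of regions higher in HADA. The 8 regions include all 3 of S100a8 and both of S100a9. The CEBP motif TTGCNNAA occurred at 1 region, the downstream one of S100a8, which is 4.76% against 8.67% of all regions, 13.2% of regions lower in HADA and 4.82% of regions higher in HADA. The longer PU.1 motif GAGGAAGT, which contains the ETS core, occurred at 1 region against 4.17% of all. AP-1 (TGANTCA) and RUNX (TGTGGTT) were at 1 region each, against 5.51% and 7.13% of all, and STAT (TTCNNNGAA) was at none, against 5.94%.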

How the data were processed

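ATAC-seq peak lists of 3 control and 3 HADA libraries were analysed. Per the labels and methods, the authors used Trimmomatic for trimming, Bowtie2 for alignment to GRCm39, Picard against duplicates and MACS2 for peaks, in each library by itself as the peak names show. The options and any Tn5 shift are not given in the sources used here. The deposited values of a peak are the fold (ratio) of its summit over the surroundings, the −log10 of the p-value and of the q-value, and a score equal to 10 times the latter in at least 99.9% of peaks.

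In MACS2 the fold is the pileup plus 1 over the background plus 1, and the p-value is a Poisson tail probability. Both equations were solved for the pileup, a whole number, and the local background (100% of peaks solved). The most frequent local background stands for depth, since total reads were not analysed here, and intervals cover counting error only. Peaks on 21 chromosomes that shared 1 bp were merged into regions, with the highest pileup per library, and assigned to genes of the GENCODE annotation of GRCm39. Log2 pileups of regions with a peak in all 6 libraries were centred on their median and compared with limma (3.58.1, R 4.3.3; Benjamini-Hochberg, 0.05), and single values with a two-sided exact permutation test. Solver and fit were tested on simulated data. A summit was taken as callable above a −log10 p of 3.27, the strictest limit of the lists, over the background of the nearest peak within 5000 bp or else the genome-wide one. Alternatives were other scalings, filters, region rules and annotation windows, a replicate block and each library left out.

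The members and gene lists were chosen with earlier results of these data known. All members were named, and of each other list up to 3 genes with the smallest p in each direction, of which some are not reported here. S100a6, Retnlb, Cxcr1, Cxcl2, the granule protein genes and genes without a region were named after their values were seen.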

Additional observations from a re-analysis of the deposited data

How the results depend on the processing

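The 8 regions called lower were tested under 15 alternatives, and of 114 single values 104 kept direction and call, 5 kept direction without passing the threshold and 5 reversed. All 5 reversals came from ranking by the deposited fold over local background, which fell with the summits: S100a8 0.0392 (adjusted p = 0.906), the S100a9 intron 0.88 (0.045), the Cxcr2 start 0.0345 (0.922), Trem1 0.49 (0.131) and Trem3 0.19 (0.465), all limma. By that rank 0 regions were lower and 1 higher, and the median was 0.0368. Among the same number of strongest peaks 4 of 4 fitted regions were lower, against 20% of all regions in that fit. With at least 3 libraries required 14 were lower, which is no support, since the added members entered mainly through control peaks and had missing HADA values set at the lowest pileup. Without HADA 2, 6 of 8 were lower, against 8.21% of all regions in that fit, and without HADA 1 or HADA 3 the share of all regions was 14.5% and 15.7%. Leaving out each library in turn gave 6 to 9 lower, 0 higher, medians of -2.22 to -1.60 and a peak difference of -6.83 to -4.33. Control-only regions were then 1 to 3, with 3 without HADA 1 or HADA 2 and 2 without control 2. The control-only rule is looser with fewer libraries in a group, and its share over all regions was not counted there. Control-only regions were also 2 among the strongest peaks and with summits within 150 bp merged. With a replicate block 8 regions were lower with a median of -1.99, against 23.6% of all regions, and the block changed no call at these 8. Same-numbered libraries deviated with correlations of -0.080, 0.075 and -0.376, and unlike-numbered ones with -0.474 to 0.488. As deviations from means of 3 libraries, these values cannot decide whether the numbers pair the libraries. Depth limits Ly6g, Csf3r, Fpr2 and Retnlg, whose summits held 9 to 46 fragments.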
